A study of Mus musculus with 14 samples.

Results

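The genes described here are 58 transcription factors and cofactors of the forebrain and of the cortical layers, read in PiC neurons of female and male mice. They were taken by gene symbol from a table of 55401 genes, and 57 of them were among the 14599 genes with enough counts to be tested. The group holds 5 LIM-only and LIM-binding proteins, 4 nuclear factor I proteins, 9 zinc finger factors, 13 factors of deep cortical layers, 9 of upper layers, 5 of pallial patterning and the TALE homeodomain class, and 13 of the SoxC, MEF2, helix-loop-helix and related families. Each of 14 libraries was made from a tube of 4 to 5 neurons of wild-type C57BL/6 mice, whose age the labels do not give. AAVretro-EGFP, a vector taken up by axon endings and carried to the cell body, had been injected into MeA or PrL at 0.1 µl, so the green cells of PiC were those that project there. The groups were male PiC-MeA (n = 3), female PiC-MeA (n = 3), male PiC-PrL (n = 4) and female PiC-PrL (n = 4). The names PiC, MeA and PrL follow the labels. Whether different tubes stem from different animals is not stated, so p-values measure only the spread between these samples, which may be technical.

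Transcription factors of the embryonic forebrain first divide its wall into a pallial part, which gives rise to the cortex, and a subpallial part. Later combinations of factors set the layer and the axonal target of each projection neuron, and many of these genes stay on in the adult. Fezf2, Bcl11b, Sox5, Foxp2 and Tle4 are known from deep-layer neurons that send axons out of the cortex, and Cux1, Cux2, Satb1 and the Pou3f genes from upper layers. LIM-only proteins bind no DNA and work by joining or parting LIM partners, and Id proteins hold E proteins such as Tcf4 away from DNA.

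Lmo4 and Nfib were the members that passed the test, and both fell in PiC-MeA neurons relative to PiC-PrL neurons. Lmo4 stood at 135 ± 43.4 CPM in male PiC-MeA and 583 ± 72.3 CPM in male PiC-PrL, and at 212 ± 80.4 CPM in female PiC-MeA and 404 ± 169 CPM in female PiC-PrL (SD, n = 3 and 4). No member passed for a difference between the sexes. The smallest p for sex within a projection was that of the zinc finger gene Zbtb20 in PiC-MeA neurons, with 159 ± 55.0 CPM in males and 13.5 ± 4.32 CPM in females (SD, n = 3 each), and it missed the threshold. CPM is a gene's count relative to the library's total, scaled for library composition to a common unit (counts per 1e6).

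Total counts per library ran from 6132985 to 15392217. At least 1 count was found for 18964 to 20014 genes in the 3 male PiC-MeA libraries and for 12479 to 14908 genes in the other 11. Of 1410 olfactory receptor genes, 232 to 303 had a count in those 3 libraries and 44 to 84 had one in each of the rest. The pan-neuronal markers all had at least 10 counts in every library. Their summed level was 7680 to 9882 CPM in male PiC-MeA, 8306 to 11110 CPM in female PiC-MeA, 13080 to 20940 CPM in male PiC-PrL and 11240 to 16990 CPM in female PiC-PrL. The summed level of 8 excitatory neuron markers was 999.5 to 3379 CPM over all 14 libraries. In tubes of pooled cells, fewer cells of a type and less RNA per cell cannot be told apart.

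Most of the factors were present in most tubes. At a minimum of 10 counts, 23 members were found in all 14 libraries, 21 in 10 to 13 libraries, 13 in 1 to 9 and 1 in none. The share of the 58 members with 10 counts was 70.7% to 96.6% per library, and that of all genes tested was 51.3% to 90.6%. The male PiC-MeA libraries held 51 to 56 members, female PiC-MeA 41 to 52, male PiC-PrL 41 to 48 and female PiC-PrL 43 to 48. Levels differed widely between tubes. The coefficient of variation over all libraries had a median of 104.5% for the members tested and 118% for all genes tested. It includes differences between the groups. The median level was 27.3 CPM for the members tested and 8.65 CPM for all genes tested. In 24 members a single library held over 25% of the summed CPM.

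**Figure D1:**
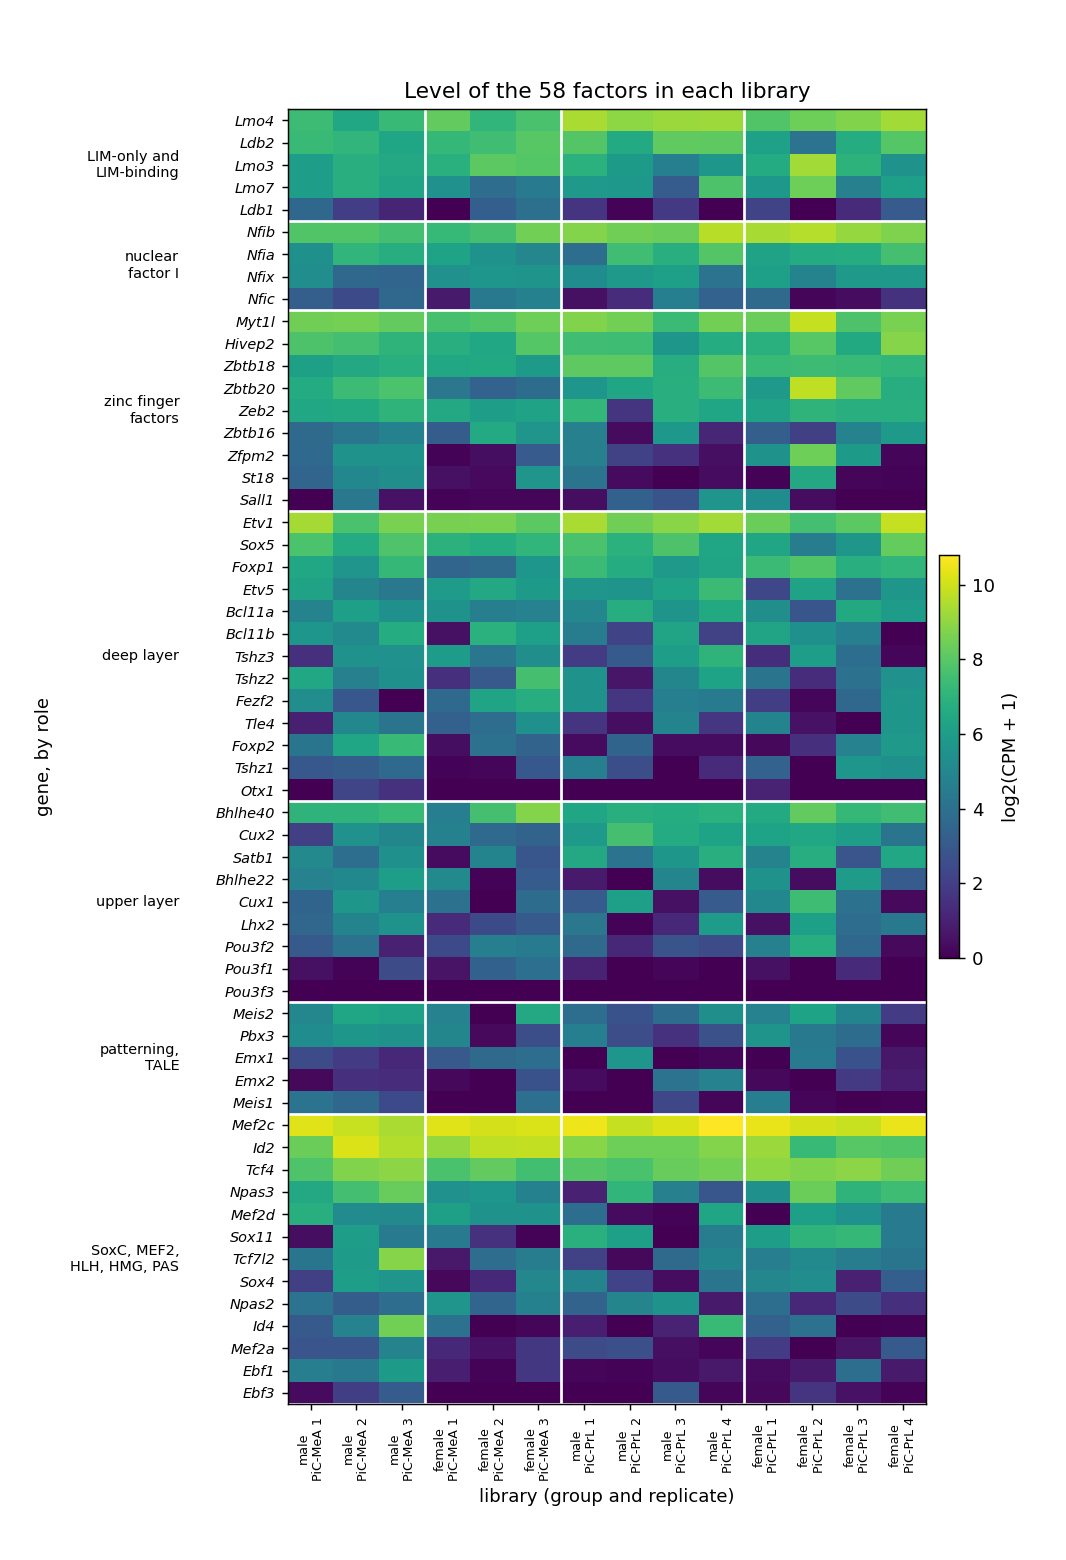
Level of each of the 58 factors (rows, grouped by role) in each of the 14 libraries (columns, grouped by sex and projection), as log2(CPM + 1). Mef2c is bright in every library, Pou3f3 is dark in every library, and most other rows change from tube to tube within a group.

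Between genes, levels were compared per kilobase of annotated exon. Id2 had the highest median over the 14 libraries, 187 CPM per kb, followed by Lmo4 at 89.4, Mef2c at 74.5 and Ldb2 at 45.8 CPM per kb. Etv1, Bhlhe40, Myt1l and Nfib came next, at 29.0, 27.3, 24.5 and 23.8 CPM per kb. The ranges of neighbours in this order overlapped: Id2 covered 65.2 to 493 CPM per kb and Lmo4 24.2 to 191 CPM per kb. At the low end, Pou3f3, an upper-layer POU factor, had 0 counts in all 14 libraries, which allows up to 0.192 to 0.433 CPM per library at 3 counts, for counting error only. Otx1, a homeobox factor of deep layers, had 10 counts in 3 libraries and Ebf3, an early B-cell factor, in 4.

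**Figure D2:**
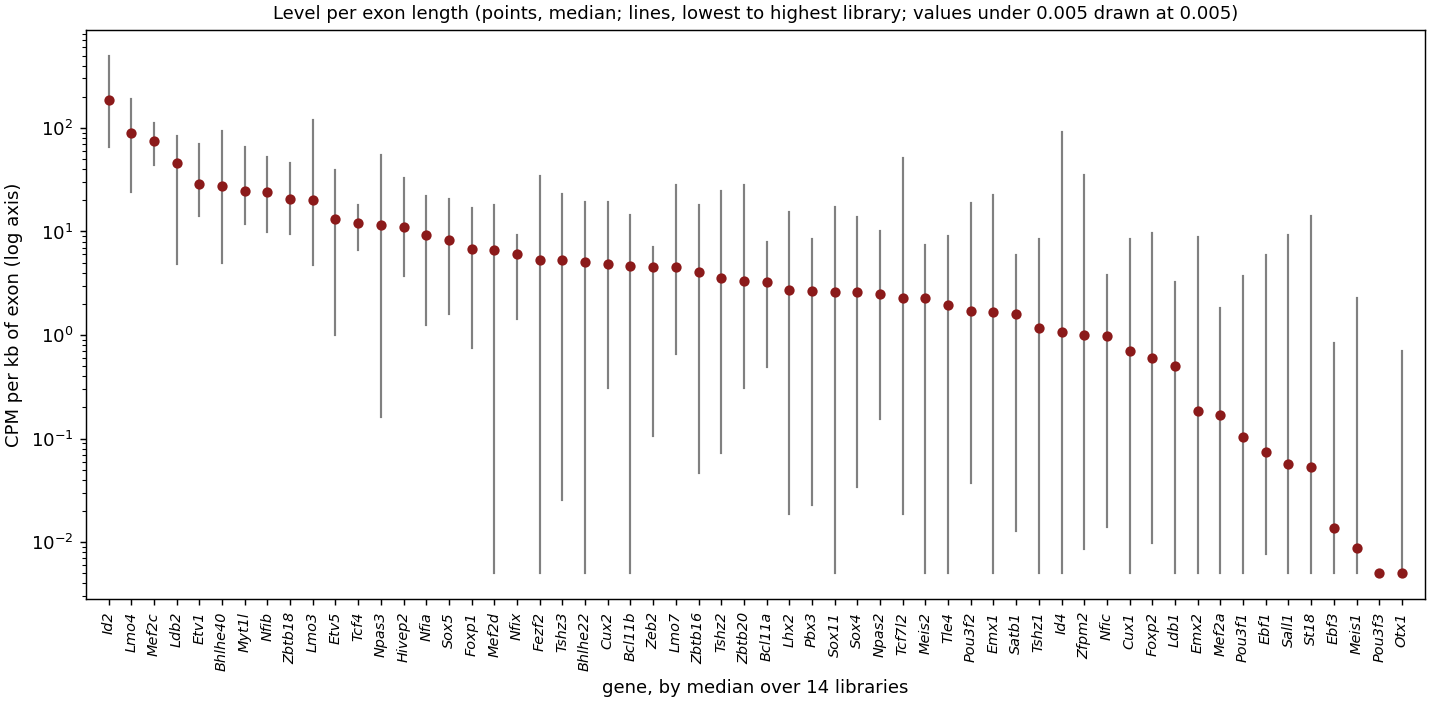
Level of each factor in CPM per kilobase of exon on a log axis, ordered by the median over 14 libraries (points), with lines from the lowest to the highest library. Id2, Lmo4 and Mef2c lead with medians of 187, 89.4 and 74.5, and the lines of the lower genes span several orders of magnitude.

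Among the LIM-only proteins, Lmo4 exceeded Lmo3 per kb of exon in 12 of 14 libraries. Lmo3 ran from 24.5 to 618.5 CPM with a median of 104 CPM. The LIM-domain-binding cofactor Ldb2 was above its paralogue Ldb1 in all 14, with medians of 45.8 and 0.502 CPM per kb. Ldb1, the partner through which LIM complexes are usually built, had 10 counts in 9 libraries and at most 14.99 CPM. Lmo7, a larger LIM protein of cell junctions, had a median of 53.7 CPM and a range of 7.79 to 334 CPM.

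The nuclear factor I proteins, which guide the maturation of neurons and glia, came in the order Nfib, Nfia, Nfix, Nfic by median, at 23.8, 9.21, 6.11 and 0.974 CPM per kb. Nfib was above Nfia in 14 of 14 libraries and Nfix above Nfic in 13, while Nfia was above Nfix in 9. The upper end of the order therefore held in every tube and its middle did not.

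Of the zinc finger factors, Myt1l, which represses non-neuronal genes in neurons, was read at 165 to 917 CPM in all 14 libraries. Hivep2 had 51.2 to 450.0 CPM and Zbtb18, a repressor needed for cortical neuron migration, 58.6 to 280 CPM. Zeb2 had 63.3 to 140 CPM in 13 libraries and 2.12 CPM in the remaining one, male PiC-PrL 2. Sall1 and St18 were at the other extreme, with medians of 0.298 and 0.342 CPM and highest values of 48.8 and 90.7 CPM.

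Deep-layer factors were read beside upper-layer factors in the same tubes. Etv1, known from layer 5 neurons, had a median of 386 CPM and Sox5, known from deep-layer neurons, 119 CPM. Both had 10 counts in every library. Fezf2, which specifies subcerebral neurons, had a median of 16.2 CPM and was at 0 counts in male PiC-MeA 3, with 106 CPM in female PiC-MeA 3. Bcl11b, which acts downstream of Fezf2, ran from 0 to 117 CPM, and Bcl11a from 6.45 to 105 CPM. Bcl11b was above Bcl11a per kb in 8 of 14 libraries, so neither led. Foxp1 exceeded Foxp2 in 12 of 14.

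Among upper-layer factors Cux2 was above Cux1 in 12 of 14 libraries, with medians of 4.89 and 0.701 CPM per kb. Bhlhe40, a helix-loop-helix repressor tied to the clock and to activity, had the highest median of this group per length, 27.3 CPM per kb. Satb1 had 10 counts in 13 libraries, Lhx2 in 12, Pou3f2 in 12 and Bhlhe22 in 10. Pou3f1 had 10 counts in 5 libraries. The pallial patterning genes were low: Emx1 had a median of 3.63 CPM and Emx2 of 0.549 CPM, with highest values of 49.6 CPM in male PiC-PrL 2 and 26.4 CPM in male PiC-PrL 4. Of the TALE factors, Meis2 had a median of 27.3 CPM, Pbx3 of 16.4 CPM and Meis1 of 0.0922 CPM.

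In the last families, Mef2c, an activity-dependent MADS-box factor, ran from 682 to 1766 CPM and had the lowest coefficient of variation of the members, 23.2%. It exceeded Mef2d per kb in 14 of 14 libraries, and Mef2d exceeded Mef2a in 11. Id2 was above Id4 in 14 of 14, while the SoxC genes Sox11 and Sox4 each led in 7. A few members were carried by 1 or 2 tubes. Id4 had 355 CPM in male PiC-MeA 3 and 157 CPM in male PiC-PrL 4 and at most 26.4 CPM elsewhere. Tcf7l2, a Wnt effector known from thalamic neurons, had 451 CPM in male PiC-MeA 3 and at most 60.2 CPM elsewhere.

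For several members the counts can hold reads of an overlapping gene, since no source used here gives the strand setting of the counting. Exons of other genes covered 67.5% of the annotated exon bases of Tshz2, 54.6% of those of Sox4, 18.3% of those of Meis1 and under 10% of those of every other member. The overlap was on the opposite strand for Tshz2 and Sox4, and mixed for Meis1.

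The first comparison asks how neurons that reach MeA differ from those that reach PrL. Averaged over both sexes, 2 members passed at an adjusted p of 0.05, which is 3.51% of the 57 tested, against 0.822% of all genes tested. At an unadjusted p under 0.05, 1 member was higher and 6 were lower in PiC-MeA, where the shares of all genes were 12.1% and 5.27%. Lmo4 had 167, 85.3 and 152 CPM in male PiC-MeA and 674, 499, 568 and 592 CPM in male PiC-PrL. It had 296, 136 and 203 CPM in female PiC-MeA and 228, 335, 426 and 626.5 CPM in female PiC-PrL. In males the PiC-MeA and PiC-PrL tubes did not overlap, and in females 1 PiC-PrL tube lay below the highest PiC-MeA tube. The log2 fold change of Lmo4 was -1.52 ± 0.29 averaged over the sexes (edgeR quasi-likelihood adjusted p = 0.0198), and -2.12 ± 0.42 in males alone (adjusted p = 0.0322). In females it was -0.93 ± 0.40 (adjusted p = 0.416). The difference between the effects in the sexes was -1.18 ± 0.56 (adjusted p = 0.315) and did not pass.

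Nfib had 232, 228 and 186 CPM in male PiC-MeA and 439, 352.5, 315 and 790.5 CPM in male PiC-PrL. In females it had 149, 191 and 360 CPM in PiC-MeA and 673, 758, 545 and 419 CPM in PiC-PrL. Every PiC-MeA tube was below every PiC-PrL tube of its own sex. The log2 fold change was -1.25 ± 0.29 averaged over the sexes (edgeR adjusted p = 0.0497), -1.14 ± 0.40 in males (adjusted p = 0.103) and -1.36 ± 0.41 in females (adjusted p = 0.403). The other nuclear factor I genes did not pass in any comparison.

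In the edgeR fit reported, both calls lay close to the threshold. The Lmo4 call over both sexes was lost without male PiC-MeA 2 (adjusted p = 0.0655) or female PiC-MeA 2 (adjusted p = 0.0606), and its call in males without male PiC-MeA 2 or 3 (adjusted p = 0.120 and 0.118) or male PiC-PrL 2, 3 or 4 (adjusted p = 0.0620, 0.0515 and 0.0747). The Nfib call was kept without female PiC-MeA 3, male PiC-PrL 1 or male PiC-PrL 3 (adjusted p = 0.0221, 0.0461 and 0.0497), and was lost when any other single library was left out, at adjusted p values up to 0.103. It was also lost with DESeq2 size factors (edgeR adjusted p = 0.0547), with a filter of 10 counts in 7 libraries (0.0617) and without edgeR's robust option (0.0532). For Lmo4 and Nfib over both sexes, the adjusted p was 4.7e-05 and 0.00226 with the DESeq2 Wald test and 0.00714 and 0.0137 with limma voom. With no filter edgeR gave 0.006 and 0.0288. These alternatives also called more genes in the table, 1492, 1277 and 452 against 120. With a covariate for detected genes no gene in the table passed, and the edgeR adjusted p of both members was 1. Detected genes numbered 18964 to 20014 in male PiC-MeA and 12479 to 14908 in the other libraries. The covariate and that group can hardly be told apart, so no conclusion is drawn from this loss. When 3 PiC-PrL tubes with few genes at 10 counts were left out, a choice made after seeing the data, the values over both sexes were -1.66 for Lmo4 (edgeR adjusted p = 0.0608) and -1.07 for Nfib (adjusted p = 0.203), and neither passed.

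Some marker genes also differed between the projections. Of 8 excitatory neuron markers, 4 were higher and 4 lower in PiC-MeA over both sexes, and none passed. Of 10 astrocyte markers, 1 passed for projection averaged over the sexes: Aldoc, an astrocyte enzyme, had a log2 fold change of -1.57 (edgeR adjusted p = 0.0248). Their summed level was 1615 to 2029 CPM in male PiC-MeA, 749 to 812 CPM in female PiC-MeA, 1889 to 6468 CPM in male PiC-PrL and 1764 to 2182 CPM in female PiC-PrL, and Aqp4 and Gjb6 had 0 counts in all female PiC-MeA libraries. Of 6 pan-neuronal markers Snap25, a SNARE protein of the presynaptic membrane, passed at -0.86 (adjusted p = 0.0363). The inhibitory neuron markers summed to 67.1 to 185 CPM in female PiC-MeA and 254 to 5516 CPM in female PiC-PrL, without overlap. In males the sums overlapped, at 171 to 2272 CPM in PiC-MeA and 137 to 670 CPM in PiC-PrL. In female PiC-PrL 1 and 4 they were 2892 and 5516 CPM, above the excitatory sums of 2144 and 2514 CPM. The lists hold 12 and 8 genes of unlike levels, so these sums do not give the share of a cell type. In these 2 tubes 9 and 7 of the 12 inhibitory markers had 10 counts, and all 8 excitatory markers did. None of the inhibitory markers passed for projection. The part of the astrocyte, pan-neuronal and inhibitory neuron markers in the Lmo4 and Nfib results was not tested.

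**Figure D3:**
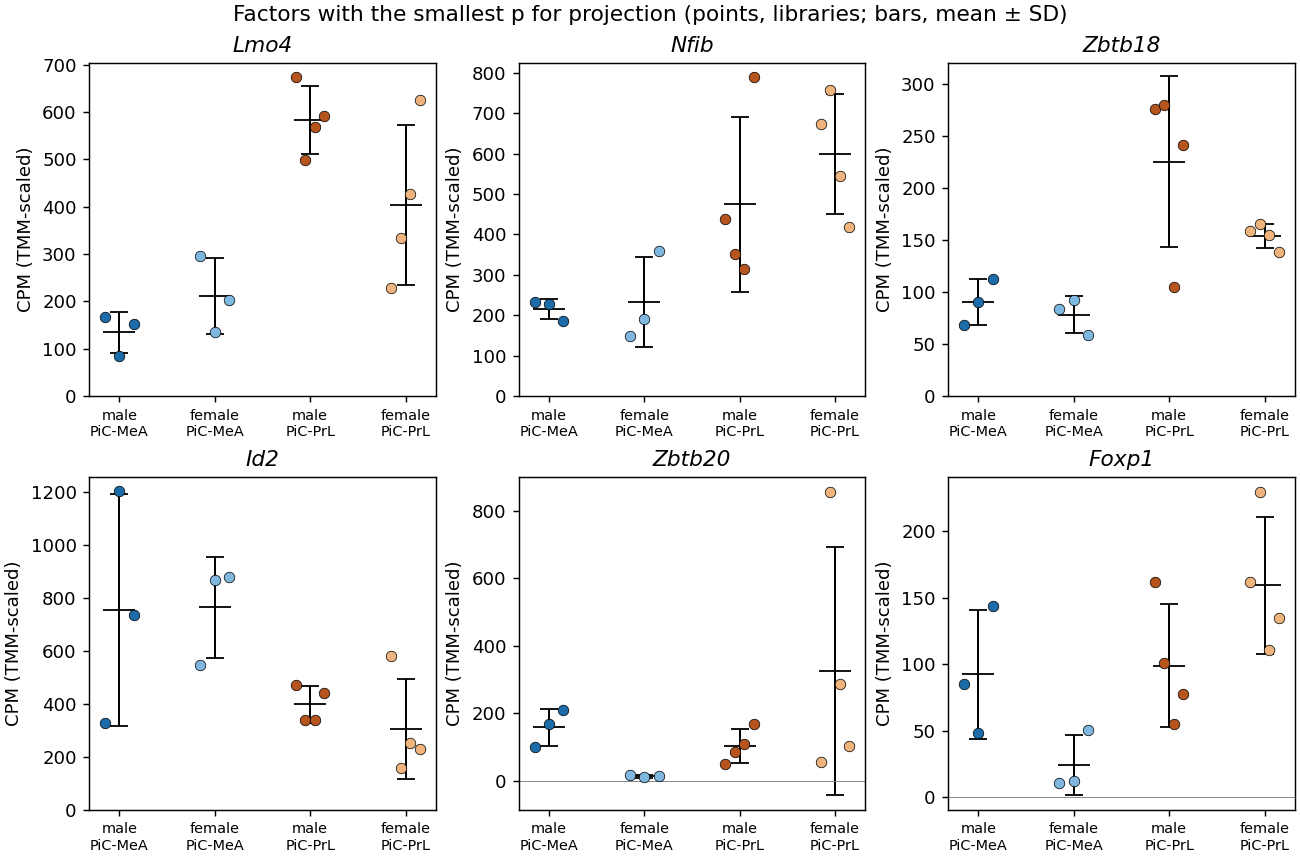
TMM-scaled CPM per library for 6 members with small p for projection, in male PiC-MeA, female PiC-MeA, male PiC-PrL and female PiC-PrL (points, libraries; bars, mean ± SD, n = 3, 3, 4 and 4). Lmo4 and Nfib passed; the Nfib points of PiC-MeA lie below those of PiC-PrL in each sex, and the mean of Zbtb20 in female PiC-PrL rests on a tube at 857.

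Of the members next to the threshold in the average over both sexes, Zbtb18 had 68.5, 90.3 and 112 CPM in male PiC-MeA and 276, 280, 105 and 241 CPM in male PiC-PrL. It had 84.1, 92.5 and 58.6 CPM in female PiC-MeA and 159, 165, 155 and 138 CPM in female PiC-PrL. The female groups did not overlap, and in males 1 PiC-PrL tube fell among the PiC-MeA tubes. The log2 fold change over both sexes was -1.15 ± 0.34 (edgeR adjusted p = 0.0653). Zbtb18 and the next member, Id2, were chosen for display after their values were seen.

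Id2 stood the other way round. It had 326, 1203 and 735 CPM in male PiC-MeA and 472, 338, 340 and 440 CPM in male PiC-PrL, and 545, 866.5 and 879 CPM in female PiC-MeA and 580, 159, 253 and 229 CPM in female PiC-PrL. The groups overlapped in both sexes through 1 tube of each, male PiC-MeA 1 and female PiC-PrL 1. Its log2 fold change was 1.12 ± 0.31 over both sexes (edgeR adjusted p = 0.0583) and 1.32 ± 0.44 in females (adjusted p = 0.403). Tcf4, an E protein that Id2 can bind, had a log2 fold change of -0.96 ± 0.37 in females (adjusted p = 0.403). It was read at 203, 291 and 182 CPM in female PiC-MeA and 495, 425, 483 and 345 CPM in female PiC-PrL, with no overlap.

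Start-site sequences of Lmo4, Zbtb18 and Id2 are shown because these genes had small p values for projection and differ in direction. The set of RefSeq promoters used here holds 81 promoters for 45 of the 58 members in GRCm38.p6. It has no entry for Nfib, which is therefore not shown. Each line gives the bases before a start site that lie in no annotated exon, 5′ to 3′ on the gene's strand, with every E-box (CANNTG, the core bound by E proteins, which reads the same on both strands) in capitals. The coordinates are chr3:144205256-144205505 (minus strand) and chr3:144202397-144202646 (minus strand) for a distal and a more proximal Lmo4 start, chr1:177442101-177442350 (plus strand) for Zbtb18 and chr12:25096254-25096342 (minus strand) for Id2. The Id2 stretch lies inside the annotated gene (chr12:25093799-25097140) and ends 161 bases before an internal start. No stretch before the outermost Id2 start is shown. The proximal Lmo4 stretch also lies inside its gene (chr3:144188530-144205220).
Lmo4 distal: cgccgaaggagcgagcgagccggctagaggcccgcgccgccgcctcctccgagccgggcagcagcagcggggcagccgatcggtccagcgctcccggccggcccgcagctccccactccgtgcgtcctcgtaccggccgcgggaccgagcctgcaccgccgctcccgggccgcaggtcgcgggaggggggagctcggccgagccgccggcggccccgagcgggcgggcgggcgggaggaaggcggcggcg
Lmo4 proximal: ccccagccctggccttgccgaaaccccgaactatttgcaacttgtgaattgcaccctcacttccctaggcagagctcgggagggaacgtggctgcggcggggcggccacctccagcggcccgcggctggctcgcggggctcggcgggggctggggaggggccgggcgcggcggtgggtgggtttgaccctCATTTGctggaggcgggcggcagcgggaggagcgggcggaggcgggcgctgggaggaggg
Zbtb18: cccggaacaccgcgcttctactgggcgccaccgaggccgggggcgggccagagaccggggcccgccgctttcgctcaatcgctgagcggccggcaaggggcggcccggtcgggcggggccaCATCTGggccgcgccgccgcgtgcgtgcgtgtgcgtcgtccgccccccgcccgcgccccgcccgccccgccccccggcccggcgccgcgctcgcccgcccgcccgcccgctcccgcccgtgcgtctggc
Id2: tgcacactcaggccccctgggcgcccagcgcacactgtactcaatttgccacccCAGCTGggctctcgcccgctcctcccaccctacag

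The distal Lmo4 stretch holds no E-box and has a G and C content of 82.4%, and the proximal one holds 1 E-box and has 73.6%. The stretches of Zbtb18 and Id2 shown, of 250 and 89 bases, each hold 1 E-box, with G and C contents of 84.0% and 67.4%. A second Zbtb18 start, not shown, has 60 bases outside exons at chr1:177445571-177445630 (plus strand), with 3 E-boxes and a G and C content of 48.3%. The stretch of a further Lmo4 start lies within the proximal one. Over the 250 bases before the start, an E-box was found in 49.4% of the members' 81 promoters and in 66.2% of all 32851 promoters in the table. The median G and C content was 58% for the members and 52.4% for all. The GC box GGGCGG, searched on both strands, was in 48.1% of the members' promoters and 32.7% of all. A match describes the letters and says nothing about binding.

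Within males, Lmo4 was the member that passed for projection, 1.75% of 57 against 0.603% of all genes tested. At an unadjusted p under 0.05, 4 members had higher and 3 had lower values in male PiC-MeA, where the shares of all genes were 17.3% and 4.89%. In 6 members every male PiC-MeA tube was above every male PiC-PrL tube: Bhlhe40, Ebf1, Foxp2, Mef2a, Meis1 and Pbx3. In Cux2, Lmo4 and Nfib every one was below. Over all genes tested, 19.2% were separated upward and 6.23% downward. These include genes that passed the filter through male PiC-MeA alone. With 10 counts in 7 libraries required, the median log2 fold change of all genes was -0.09, against 0.16.

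Within females no member passed, and no gene in the table did (0%). At an unadjusted p under 0.05, 1 member had higher and 8 had lower values in female PiC-MeA, against 5.78% and 5.31% of all genes. Ebf3, Foxp1, Nfib, Sox11, Tcf4, Zbtb18 and Zbtb20 were lower in every female PiC-MeA tube than in every female PiC-PrL tube, and none of the 57 was higher in every one. Over all genes tested, 3.97% were separated downward and 4.47% upward. The members' median log2 fold change was -0.67 in females, where that of all genes was -0.06, and 0.42 in males, where that of all genes was 0.16. In 23 of 57 members, 40.4%, the fitted changes in males and females had the same sign, and in 49.1% of all genes.

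Zbtb20 had the smallest p within females. It was read at 18.1, 9.53 and 12.99 CPM in female PiC-MeA and at 56.8, 857, 287 and 104 CPM in female PiC-PrL. In males it had 99.8, 168 and 209 CPM in PiC-MeA and 49.2, 83.6, 110 and 168 CPM in PiC-PrL. The female groups did not overlap and the male groups did. The log2 fold change was -4.59 ± 0.87 in females (edgeR adjusted p = 0.294) and 0.63 in males. The call depends on the tool and on the filter: with no filter on low counts the adjusted p in females was 8.9e-05, and with the DESeq2 Wald test 7.3e-07, the lowest of all alternatives, while the highest was 0.556. Foxp1, a forkhead repressor, had 10.4, 12.1 and 50.2 CPM in female PiC-MeA and 162, 230, 111 and 135 CPM in female PiC-PrL. Its log2 fold change was -2.72 ± 0.74 (edgeR adjusted p = 0.403), and the alternatives gave an adjusted p between 0.00258, with the DESeq2 Wald test, and 0.768.

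**Figure D4:**
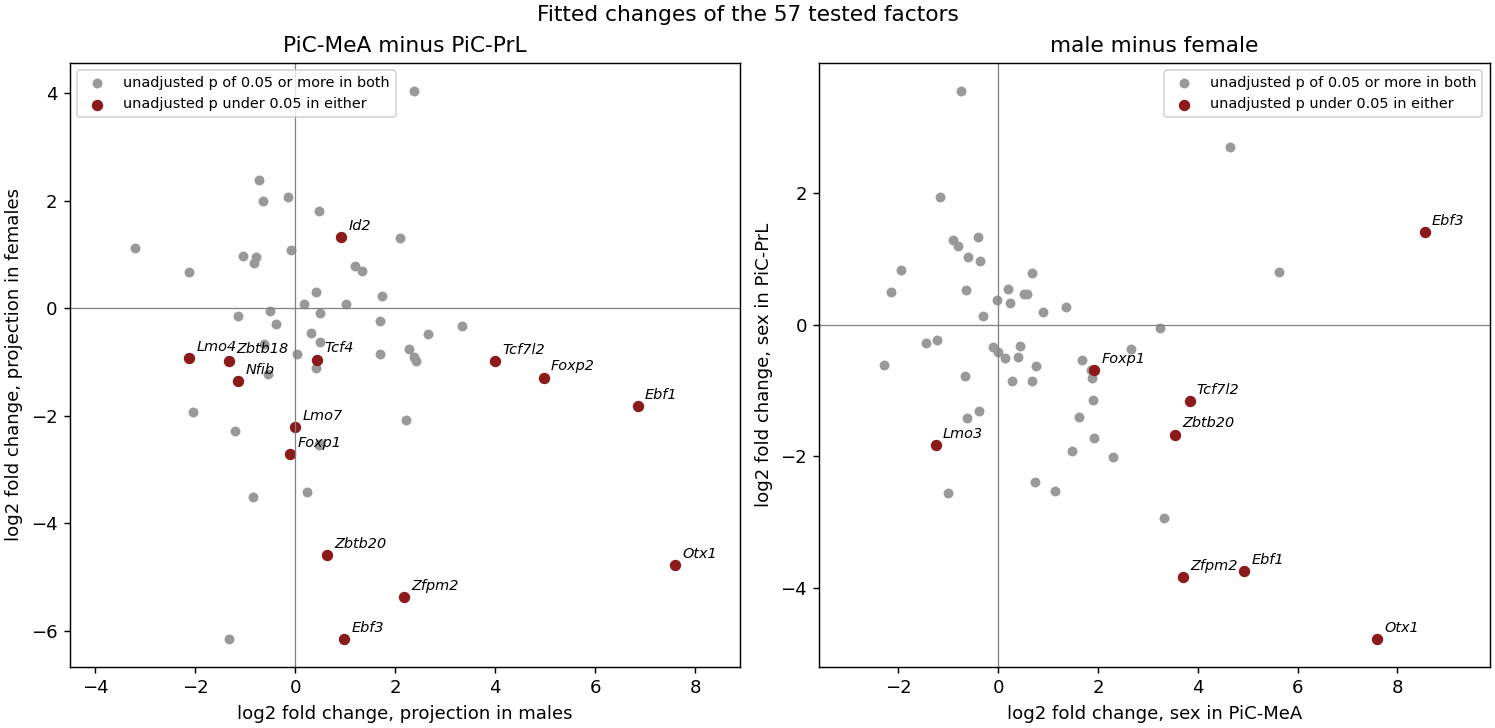
Fitted log2 fold changes of the 57 tested factors, for projection (PiC-MeA minus PiC-PrL) in males against females on the left and for sex (male minus female) in PiC-MeA against PiC-PrL on the right. Named genes had an unadjusted p under 0.05 in either comparison; 23 of 57 points share a sign on the left and 20 of 57 on the right.

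The second comparison asks how male neurons differ from female neurons of the same projection. In PiC-MeA neurons no member passed, and no gene in the table did (0%). At an unadjusted p under 0.05, 6 members were higher and none lower in males, against 10.3% and 2.05% of all genes tested. In 11 members every male tube was above every female tube and in 3 every one was below, against 17.5% and 8.76% of all genes. The separated members above were Ebf1, Ebf3, Foxp2, Lhx2, Lmo7, Mef2a, Npas3, Pbx3, Tshz1, Zbtb20 and Zfpm2, and those below were Emx1, Lmo3 and Nfix. The shares are near those of all genes, and the male tubes of this pair are those with more genes detected. All genes tested are no neutral reference, since their median level was 8.65 CPM and that of the members 27.3 CPM. The filter also keeps genes with enough counts in male PiC-MeA alone. With 10 counts in 7 libraries required, the median log2 fold change of all genes was 0.04, against 0.12. The part of these points in the values was not tested.

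Zbtb20 again had the smallest p. With the values given above, the male tubes lay at 99.8 to 209 CPM and the female tubes at 9.53 to 18.1 CPM. The log2 fold change was 3.55 ± 0.85 (edgeR adjusted p = 0.299), and the adjusted p was 0.0182 with no filter on low counts and 0.000893 with the DESeq2 Wald test, in a range over the alternatives that reached 1 with the detected genes as a covariate. Zbtb20 is also known from astrocytes, and the astrocyte markers, 10 of which had 10 counts in each male PiC-MeA tube and 5 to 7 in each female one, differed between these groups in the same direction; their part was not tested. Foxp1 had 84.7, 48.1 and 144 CPM in male PiC-MeA and 10.4, 12.1 and 50.2 CPM in female PiC-MeA, where the groups overlapped by 1 tube. Its log2 fold change was 1.93 ± 0.74 (edgeR adjusted p = 0.318).

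Ebf3 and Otx1 had counts in male and none in female PiC-MeA tubes. Ebf3 had 3, 37 and 54 counts in males and 0 in all 3 females, at least 16.6-fold higher in mean CPM when each female library is put at 3 counts. Otx1 had 0, 47 and 13 counts in males and 0 in all 3 females, at least 8.58-fold higher on the same basis. Both bounds cover counting error in the female tubes only and not the spread between the male tubes. The edgeR adjusted p was 0.312 for Ebf3 and 0.335 for Otx1. Limma voom gave 0.0165 and 0.0476, the lowest of the alternatives, and the highest was 1 for both.

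Markers of further cell types also differed between these tubes. Of 7 endothelial or mural markers, 3 to 5 had 10 counts in each male PiC-MeA tube and 0 to 1 in each female one, with summed levels of 17.8 to 93.1 CPM in males and 0.378 to 2.44 CPM in females. Cldn5 was at 0 in all libraries, and Pdgfrb and Vtn were at 0 in the female ones. Of 12 inhibitory neuron markers, 7 to 11 had 10 counts in the male tubes, at 171 to 2272 CPM in sum, and 4 to 8 in the female tubes, at 67.1 to 185 CPM. Dlx1 was at 0 in all libraries and Slc32a1 in the female ones. The part of these cells in the values of Ebf1, Ebf3, Otx1 and the other members was not tested.

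In PiC-PrL neurons no member passed, nor any gene in the table (0%). At an unadjusted p under 0.05, none was higher and 3 were lower in males, against 5.56% and 8.78% of all genes. No member separated the tubes of the sexes, while 1.49% of all genes did upward and 2.02% downward. Lmo3 had 117, 57.5, 24.5 and 51.3 CPM in male PiC-PrL and 97.8, 618.5, 124 and 44.0 CPM in female PiC-PrL, and the groups overlapped. Its log2 fold change was -1.82 ± 0.71 (edgeR adjusted p = 0.283) with all libraries and -0.50 without female PiC-PrL 2. Zbtb20 was at -1.67 ± 0.68 (adjusted p = 0.289) and at -0.54 without that library. Zfpm2, a GATA cofactor known from corticothalamic neurons, had 24.7, 3.34, 1.95 and 0.369 CPM in male PiC-PrL and 43.9, 334, 57.9 and 0.14 CPM in female PiC-PrL, with overlap. It was at -3.84 ± 1.76 (adjusted p = 0.327) with all libraries and at -2.16 without that library.

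Female PiC-PrL 2 held the highest value of 11 of the 58 members, among them Lmo3, Lmo7, Zbtb20, Zfpm2, Npas3 and Myt1l, more than any other library, and the highest sum over the members, 8806 CPM. Male PiC-PrL 4 held 8, and female PiC-MeA 3 and male PiC-MeA 3 held 7 each. Female PiC-PrL 2 and male PiC-PrL 4 had the lowest factors for library composition, 0.757 and 0.743, against 0.861 to 1.21 elsewhere. A low factor raises every scaled CPM of a library, and its part in these values was not tested. In female PiC-PrL 2 the astrocyte markers summed to 2182 CPM, the inhibitory neuron markers to 254 CPM and the excitatory neuron markers to 1783 CPM, all within the ranges of the other libraries.

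Averaged over both projections, the sexes differed in no member at the threshold, against 0.0137% of all genes tested. Ebf3 was higher and Lmo3 lower in males at an unadjusted p under 0.05, against 7.6% and 3.06% of all genes. Lmo3 was at -1.54 ± 0.54 (edgeR adjusted p = 0.301), with 62.3, 110 and 91.1 CPM in male PiC-MeA and 113, 270 and 243 CPM in female PiC-MeA. Those PiC-MeA groups did not overlap.

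The fitted sex differences had the same sign in PiC-MeA and in PiC-PrL in 20 of 57 members, 35.1%, and in 42.9% of all genes. The test of the difference between the sex differences gave no member and no gene at the threshold (0%). There were 10 members above 0 and 1 below at an unadjusted p under 0.05, against 11.8% and 3.75% of all genes. The members' median was 0.88 and that of all genes 0.31, on the log2 scale. Zbtb20 had the smallest p among them, with a value of 5.22 ± 1.08 (edgeR adjusted p = 0.152), with 0.00085 when no filter was used, 0.000141 with the DESeq2 Wald test and up to 1 over the alternatives. Otx1 was next by p, at 12.38 ± 3.72 (edgeR adjusted p = 0.153). It had 47 and 13 counts in 2 male PiC-MeA tubes, 13 counts in 1 female PiC-PrL tube and 0 in all other libraries. This fitted value and its SE therefore depend on the prior count. Ebf1, a helix-loop-helix factor known from striatal neurons, was at 8.67 ± 2.92 (edgeR adjusted p = 0.165). It was read at 23.7, 19.7 and 57.5 CPM in male PiC-MeA and at 0.894, 0.0756 and 2.32 CPM in female PiC-MeA. It was at most 0.647 CPM in male PiC-PrL and at most 13.9 CPM in female PiC-PrL. Zfpm2 was at 7.54 ± 2.70 (adjusted p = 0.185) and Lmo4 was the member below 0 at that unadjusted p.

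The members are long genes. Their median span on the genome was 127 kb and 53.5% exceeded 100 kb, against 28.8 kb and 18.2% for all genes tested. The fitted change was above 0 in 35 of 57 members for sex in PiC-MeA (53.6% of all genes), in 22 for sex in PiC-PrL (48.7%), in 35 for projection in males (53.4%), in 19 for projection in females (47.5%) and in 39 for the difference between the sex differences (54.8%). When each library's trend with gene span was removed, the members' median log2 fold change for sex in PiC-MeA was -0.17 (27 of 57 above 0), against 0.51 without that step, and for projection in males -0.39 (23 of 57 above 0), against 0.42. For sex in PiC-PrL it was -0.04 (28 of 57 above 0), against -0.41. For projection in females it was -0.48, against -0.67, and for the difference between the sex differences 0.09, against 0.88. Of these medians, those for sex in PiC-MeA and projection in males changed sign, and those for sex in PiC-PrL and for the difference between the sex differences came close to 0. Over both sexes Lmo4, at -1.47 (edgeR adjusted p = 0.0275), and Nfib, at -1.51 (adjusted p = 0.0342), still passed with this step, and Id2 then passed at 1.65 (adjusted p = 0.0181). Lmo4 in males alone was at -1.75 and did not pass (adjusted p = 0.0854).

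Lists of other neuronal factors were read for comparison. Of 16 other pallial neuron factors 13 were tested, of 16 subpallial and GABA neuron factors 9, and of 14 thalamic, hypothalamic and caudal factors 2. None of them passed in any comparison. The summed level of the other pallial factors was 166 to 2196 CPM per library, that of the subpallial factors 0.407 to 136 CPM and that of the caudal factors 0.163 to 68.9 CPM. The subpallial factors Dlx1 and Dlx6 and the neuronal factor Neurod1 had 0 counts in all 14 libraries. Those 3 lists hold none of the 58 genes described here.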

How the data were processed

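Polyadenylated RNA of 14 tubes was amplified with SMART-Seq2, per the labels' protocols. The deposited table gives a raw count of reads for each gene and library, not pooled and not normalised by the authors. Tools named in the submitters' processing notes are featureCounts 2.0.1, HISAT2 2.2.1, Trimmomatic 0.39 and SAMtools, with mm10 as the build. How strand and shared reads were handled, and which annotation was counted on, was not given in the sources used here.

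Of 55401 identifiers, 55141 matched GENCODE M21, the source of spans and exon lengths. Genes were kept by filterByExpr (minimum count 10, minimum total 15) and scaled by trimmed means of M-values (TMM). They were fitted with 1 mean per group by edgeR 4.0.16 (R 4.3.3, robust quasi-likelihood model), which was run on simulated data. The simulated counts had the same spread for every gene and no group set to detect more genes. That run therefore does not show how the fit performs on tubes as variable as these. The 7 contrasts were sex (male minus female) within each projection and averaged, projection (PiC-MeA minus PiC-PrL) within each sex and averaged, and the difference between the sex differences. P-values were adjusted by Benjamini-Hochberg over all 14599 genes tested, with a threshold of 0.05. Fold changes are log2 ± SE. The SE was derived as the size of the log2 fold change divided by the square root of the quasi-likelihood F statistic. It is unreliable for genes with 0 counts in a whole group. For Otx1 and sex averaged over the projections it was 3855. Levels are TMM-scaled CPM, as mean ± SD where averaged.

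The members and lists were chosen with earlier results of these data known. Per contrast, the rule named each member that passed or, where none did, up to 4 per direction with the smallest unadjusted p under 0.05. Levels were named for the highest 8 members per kb, for rarely read members and for families; other genes were chosen after their values were seen. Replicate numbers gave no sign of pairing the libraries: correlations of deviations over 19 pairs with the same number lay between -0.0388 and 0.0407. Pairs with different numbers were not computed, so whether tubes with the same number share an animal cannot be told. Alternatives were DESeq2 1.42.0 size factors and Wald test, no filter, a filter of 10 counts in 7 libraries, limma 3.58.1 voom, no robust option, a covariate for how many genes a library detected, a fit of only the groups compared, a replicate block, removal of the gene span trend, and leaving out libraries.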

Additional observations from a re-analysis of the deposited data

Results flagged for a closer look

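Among the members named for a comparison, 5 of 21 sets of PiC-PrL libraries held 1 tube whose gap to the nearest of the others was larger than Dixon's 95% limit for 4 values. Chance marks about 1 in 20 sets of normally distributed values. The members were named from these same values and CPM is skewed, so the number of sets is not read against that rate. Ebf3 had 7.30 CPM in male PiC-PrL 3, where the next tube had 0.0924 CPM. Zfpm2 had 24.7 CPM in male PiC-PrL 1, where the next had 3.34 CPM. Lmo3 had 618.5 CPM in female PiC-PrL 2, where the next had 124 CPM. Ebf1 had 13.9 CPM in female PiC-PrL 3, where the next had 0.737 CPM, and Otx1 had 1.05 CPM in female PiC-PrL 1, where the others had 0. The 5 values come from 5 different libraries.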

How the results depend on the processing

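The number of members that passed for projection over both sexes, 2 in the fit reported, was 1 with DESeq2 size factors, 1 with the stricter filter, 1 without the robust option, 4 with no filter, 4 with limma voom and 7 with the DESeq2 Wald test. Over all genes 120 passed in the fit reported, 452 with no filter, which tests more genes, 1277 with voom and 1492 with the Wald test, so the larger numbers of members came with larger numbers of genes. It was 0 with a covariate for detected genes, 0 with the replicate block and 0 after 3 PiC-PrL libraries were left out that had the fewest genes at 10 counts, a choice made after seeing the data. For projection in males, 1 in the fit reported, it was 5 with the Wald test, 5 with voom, and 0 with the covariate, the replicate block, the span trend removed or those 3 libraries left out. Over all genes 88 passed in the fit reported, 2022 with the Wald test and 2617 with voom. Where no member passed, no filter gave 1 for sex in PiC-MeA, 1 for projection in females and 1 for the difference between the sex differences, the Wald test gave 2, 3 and 4, and voom gave 3, 0 and 1. Over all genes these were 45, 46 and 84 with no filter, 777, 628 and 1156 with the Wald test and 1761, 31 and 729 with voom. With the covariate no gene passed in any comparison. Leaving out 1 library gave 0 to 2 for projection over both sexes and 0 to 1 in males. With the replicate block Lmo4 was at -1.44 (edgeR adjusted p = 0.0595) and Nfib at -1.16 (adjusted p = 0.209) over both sexes, and Lmo4 at -2.05 in males (adjusted p = 0.0544). The covariate turned Foxp1 (-0.83) and Otx1 (-16.74) for sex in PiC-MeA, and Otx1 (-18.06) and Zfpm2 (-2.75) for the difference between the sex differences. The covariate is highest in the male PiC-MeA libraries, so its effect and that of the group can hardly be told apart. The cause was not tested.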
